A study of Homo sapiens with 6 samples.

Results

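The TRIM genes of SCC9 cells, which encode tripartite motif proteins, were compared between cells in which TEAD was inhibited and control cells. A gene was taken as a member when its symbol in the table of expression values was TRIM followed by a number and at most 1 further letter. This rule found 52 of the 19437 genes of the table, and it used no measured value. SCC9 is an established human line from a squamous cell carcinoma of the tongue. All cells grew in medium with 10% serum and hydrocortisone and received an adenovirus at a multiplicity of infection of 25, so that the controls, too, carried virus. The control virus expressed green fluorescent protein (GFP) and the other one TEADi, named in the labels as a protein inhibitor of TEAD, the DNA-binding partners of the co-activators YAP and TAZ. Polyadenylated RNA was sequenced 48 h after transduction from 3 libraries per group, lettered A, B and C. The labels do not say whether the libraries came from separate cultures, so p-values measure the spread between libraries, which may be technical. No untransduced cells are among the samples, and the labels do not name the promoter that drives either transgene.

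Most TRIM proteins share a RING domain, which transfers ubiquitin to a target protein together with an E2 enzyme, followed by 1 or more B-box zinc fingers and a coiled coil through which they form dimers. The part behind the coiled coil differs between members and sets what they bind, such as chromatin, microtubules, viral capsids or RNA-sensing proteins. Several members are known as restriction factors of retroviruses or as regulators of the antiviral response, and others act on transcription, cell division or the cytoskeleton.

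Levels are read counts per library size, scaled by the authors with TMM factors (CPM), and sum to between 827118 and 915554 per library. A library's smallest value stands for no reads, and library totals were 9589691 to 15380507 times that value, which is the closest the table comes to a read depth. The epithelial keratins KRT8 and KRT18 were present in all libraries, at 96.9 to 228 and 58.6 to 82.1 CPM. The basal keratins KRT5 and KRT14 were near 0 in all TEADi libraries and in GFP library C, whereas KRT5 reached 21.7 and 17.2 CPM in GFP libraries A and B, which therefore stood apart from C in this respect. Of the 9 epithelial markers, 4 reached 1 CPM in at least 3 libraries. EPCAM lay at 1.38 to 3.41 CPM and KRT7 at 2.69 to 4.32 CPM. CDH1, TP63 and KRT19 did not exceed 1.90 CPM in any library and were also lower in GFP library C than in A and B. The summed level of the 9 markers, most of it KRT8 and KRT18, was 270.4 to 346 CPM in GFP and 164 to 174 CPM in TEADi. Of 6 fibroblast markers 5 were in the table, with a sum of 539 to 704 CPM in GFP and 1180 to 1248 CPM in TEADi. The higher sum lay in DCN (54.5 ± 5.57 to 675 ± 19.4 CPM) and to a lesser extent LUM (97.2 ± 6.89 to 180.0 ± 2.75 CPM), while COL1A1 was lower (379 ± 67.5 to 254 ± 19.7 CPM) and COL1A2 was not called. Of 4 blood cell markers only CD14 was in the table, at no more than 1.81 CPM. The part of these differences in the TRIM results was not tested.

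Of the 52 TRIM genes, 43 reached 1 CPM in at least 3 of 6 libraries and were tested, and each of the 43 did so in all 6. With TEADi, 12 of them rose and 13 fell (limma on log2(CPM + 1), Benjamini-Hochberg adjusted p under 0.05 over all 13648 genes tested, the source of every adjusted p given here unless the authors' table is named). In bulk RNA, fewer cells that express a gene and less of its RNA per cell cannot be told apart. These 25 genes are 58.1% of the tested members, near the 60.8% called among all genes. The 27.9% of members called higher and the 30.2% called lower stood beside 25.5% and 35.3% of all genes. TEADi and GFP values did not overlap in 30 of 43 members (69.8%, against 65.7% of all genes), with TEADi above in 15 (27.7% of all genes) and below in 15 (38.1% of all genes). The median fitted log2 fold change of the tested members was -0.03, and that of all genes tested was -0.07. Of the called members, 3 fell by at least 2-fold on the fitted scale (2.89% of all genes did) and 1 rose by as much (5.06% of all genes).

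TRIM58, a RING ligase known from red cell precursors, where it acts on the motor protein dynein, was 11.98-fold lower with TEADi. TRIM47 was 2.78-fold and TRIM6 2.41-fold lower, both RING ligases with the same kind of C terminus as TRIM58. TRIM29, a family member without a RING that is typical of stratified epithelia, was 3.49-fold higher. Every other called member changed by less than 2-fold, and in 7 of 13 that fell and 7 of 12 that rose the ratio of the means was below 1.5-fold. None of the 25 changed sign in those of the 17 alternative settings in which they were tested, which were 16 for TRIM22 and TRIM46, below a filter of 5 CPM. Without GFP libraries A and B 9 members were called higher and 11 lower. The split depended on scaling, because with libraries set to equal totals or scaled by median-ratio factors 17 members were called higher and 11 lower. The calls over all genes shifted the same way. In the main fit 3483 genes were higher and 4812 lower. These counts became 4186 and 4128 with equal totals and 4206 and 4123 with median-ratio factors.

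**Figure D1:**
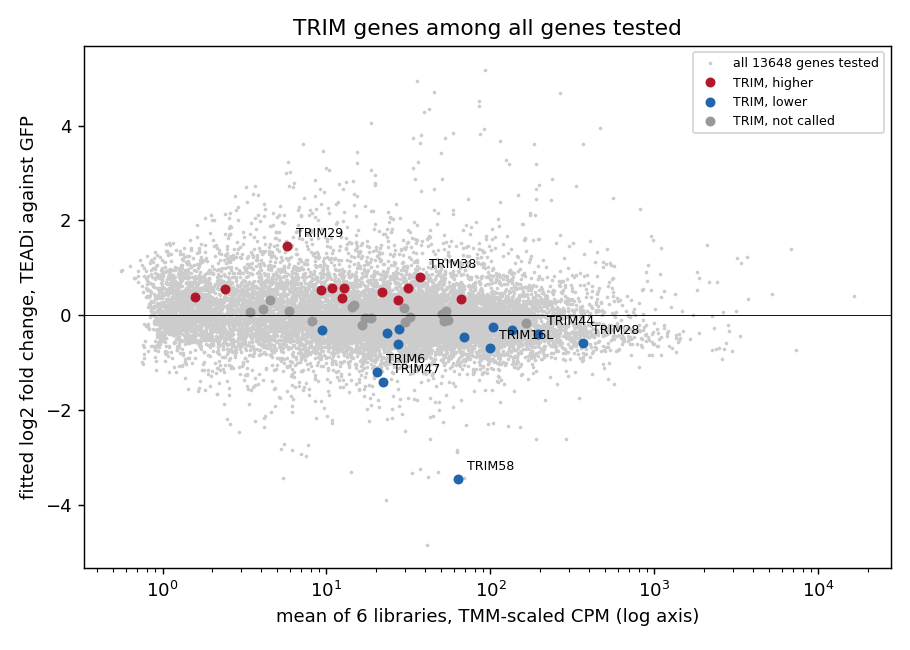
Mean level over 6 libraries (CPM, log axis) against the fitted log2 fold change of TEADi against GFP, for all genes tested (grey) and for the 43 tested TRIM genes, coloured by call. TRIM58 lies at a log2 fold change of -3.46, far below the other TRIM genes, and TRIM28 at the right has the highest mean CPM of the family.

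TRIM58, on chromosome 1 (hg19, 248020501 to 248041507, plus strand), had levels of 118, 114 and 117 CPM in the GFP libraries, in the order A, B, C used throughout, and of 10.5, 9.65 and 9.04 CPM in the TEADi libraries. Each group was tight, and the highest TEADi value was far below the lowest GFP value. The fitted log2 fold change was -3.46 ± 0.08 (SE, n = 3 per group; adjusted p = 1.37e-15). This was the 3rd largest fitted fall among 13648 genes, and over the alternatives its place ranged from 3 to 14, the latter with a pseudocount of 0.1. In the authors' deposited table the ratio of TEADi to GFP for TRIM58 is 0.0835. Per kilobase of merged exons in the GENCODE 29 annotation, the level of TRIM58 was the second highest of the family in GFP, at 36.2 CPM per kilobase, and ranked 27 in TEADi, at 3.02. TRIM58 made up 5.20% to 5.47% of the summed CPM of all 52 members in GFP libraries and 0.498% to 0.611% in TEADi libraries. The gene for the olfactory receptor OR2W3 overlaps TRIM58 on the same strand over 10231 bases, and its values were 10.6, 10.7 and 9.64 CPM in GFP and 2.09, 2.002 and 1.93 CPM in TEADi. OR2W3 was thus also lower (5.14-fold; adjusted p = 1.5e-09), and which reads belong to which of these genes cannot be told apart at gene level.

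TRIM47, on chromosome 17 (hg19, 73870242 to 73874656, minus strand), went from 33.1, 33.8 and 31.3 CPM in GFP to 10.2, 11.4 and 13.8 CPM in TEADi. No TEADi library came near a GFP library, and the log2 fold change was -1.41 ± 0.11 (SE; adjusted p = 6.56e-09). Its neighbour TRIM65, a ligase known to act on the RNA sensor MDA5, lies 1759 bases away on the same strand. TRIM65 measured 29.2, 28.1 and 26.9 CPM in GFP and 31.1, 28.4 and 34.9 CPM in TEADi, overlapped between groups and was not called (adjusted p = 0.145). With equal totals, median-ratio factors or quantile normalization TRIM65 was called higher, the opposite direction to TRIM47.

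TRIM6, on chromosome 11 (hg19, 5617339 to 5634188, plus strand), makes unanchored ubiquitin chains that act on the kinase IKBKE. Its values were 30.8, 27.9 and 27.0 CPM in GFP and 11.3, 13.7 and 10.7 CPM in TEADi, without overlap (-1.20 ± 0.11, SE; adjusted p = 4.09e-08). TRIM6 belongs to a cluster with TRIM34, TRIM5 and TRIM22, all known for effects on retroviruses, of which TRIM22 was called higher and TRIM34 and TRIM5 were not called. TRIM34, which starts 6805 bases behind TRIM6 on the same strand, had 4.22, 3.44 and 2.36 CPM in GFP and 3.48, 3.61 and 3.29 CPM in TEADi. The 3 TEADi values of TRIM34 lay inside the GFP range, and the read-through TRIM6-TRIM34 overlaps it. TRIM5, the capsid-binding restriction factor, stood at 19.2 ± 1.53 CPM in GFP and 18.3 ± 1.61 CPM in TEADi (mean ± SD, n = 3 libraries here and below) and was not called either. TRIM22, an interferon-induced inhibitor of viral transcription, rose from 2.38, 1.52 and 1.45 CPM to 3.45, 2.66 and 2.96 CPM, with adjusted p = 0.00914. In the table TRIM22 lies within the span of TRIM5 on the other strand, TRIM5 has the higher level, and the use of strand in counting is not given in the sources used here.

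The promoters of the members with the largest falls are shown first, to set them beside those of called members that hold the core letters of the TEAD recognition sequence, GGAATG. Windows reach from 250 bases before to 50 bases after the transcription start and come from RefSeq (build GRCh38.p14), not from the hg19 of the expression table. They are written in lower case from 5′ to 3′ on the strand of the gene. Capitals mark GGAATG, or CATTCC on the other strand, and an interferon-type element, GAAA followed by any 2 bases and a further GAAA, or TTTC, any 2 bases and TTTC on the other strand. The windows of TRIM58 (chr1:247856937-247857236, plus strand), TRIM47 (chr17:75878532-75878831, minus strand) and TRIM6 (chr11:5596387-5596686, plus strand) hold neither.
TRIM58: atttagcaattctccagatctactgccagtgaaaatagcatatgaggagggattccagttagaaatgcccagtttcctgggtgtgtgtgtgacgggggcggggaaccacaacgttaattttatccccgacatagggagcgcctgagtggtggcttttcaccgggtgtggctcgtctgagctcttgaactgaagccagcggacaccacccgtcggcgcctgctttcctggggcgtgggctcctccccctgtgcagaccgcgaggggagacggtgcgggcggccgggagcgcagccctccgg
TRIM47: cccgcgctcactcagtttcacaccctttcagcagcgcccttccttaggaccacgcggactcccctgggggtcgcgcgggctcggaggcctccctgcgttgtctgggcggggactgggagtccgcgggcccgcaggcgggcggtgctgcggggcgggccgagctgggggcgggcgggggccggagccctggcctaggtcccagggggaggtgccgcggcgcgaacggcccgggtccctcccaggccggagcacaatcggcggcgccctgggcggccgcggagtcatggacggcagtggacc
TRIM6: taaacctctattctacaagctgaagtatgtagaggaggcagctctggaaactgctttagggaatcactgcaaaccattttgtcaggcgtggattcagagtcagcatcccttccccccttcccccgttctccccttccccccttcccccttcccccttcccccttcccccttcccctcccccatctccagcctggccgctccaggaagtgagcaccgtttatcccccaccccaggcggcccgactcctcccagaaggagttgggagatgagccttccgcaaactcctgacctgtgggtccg

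Among called members with GGAATG, TRIM44 (chr11:35662525-35662824, plus strand) fell, and TRIM36 (chr5:115180245-115180544, minus strand) and TRIM52 (chr5:181261094-181261393, minus strand) rose. In TRIM44 GGAATG begins at position -226 from the start and an interferon-type match at -35. GGAATG begins at -179 in TRIM36 and at -194 and -166 in TRIM52.
TRIM44: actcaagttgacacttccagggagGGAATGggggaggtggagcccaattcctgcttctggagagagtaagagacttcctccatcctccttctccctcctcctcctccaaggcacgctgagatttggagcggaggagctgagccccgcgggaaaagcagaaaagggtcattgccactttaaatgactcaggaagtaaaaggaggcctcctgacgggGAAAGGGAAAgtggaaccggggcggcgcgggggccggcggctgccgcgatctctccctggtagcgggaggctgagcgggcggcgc
TRIM36: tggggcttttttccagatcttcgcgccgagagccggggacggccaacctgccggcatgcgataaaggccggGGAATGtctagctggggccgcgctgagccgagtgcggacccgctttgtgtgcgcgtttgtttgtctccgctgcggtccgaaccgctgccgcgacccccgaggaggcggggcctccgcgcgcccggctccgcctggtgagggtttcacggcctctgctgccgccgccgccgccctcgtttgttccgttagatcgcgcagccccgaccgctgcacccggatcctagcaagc
TRIM52: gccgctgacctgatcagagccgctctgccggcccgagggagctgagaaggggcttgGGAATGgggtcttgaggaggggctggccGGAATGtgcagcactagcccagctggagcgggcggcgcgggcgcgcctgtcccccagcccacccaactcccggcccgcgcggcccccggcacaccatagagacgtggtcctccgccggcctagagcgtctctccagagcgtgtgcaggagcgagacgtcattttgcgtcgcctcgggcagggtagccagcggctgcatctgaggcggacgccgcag

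Promoter windows were found for 39 of 52 members, and for 31 of the 43 tested. GGAATG on either strand was present in 7 of 46 windows of tested members (15.2%), beside 14.03% of all 35116 windows in the table. These windows belong to 5 members, and overlapping windows of TRIM2 share a match. By gene these were 3 of 9 members that rose, 1 of 9 that fell and 1 of 13 that were not called, counting only members with a window. The further tested members with GGAATG were TRIM2, which rose, and TRIM5, which was not called. Members differ in their number of windows, and a member with several, such as TRIM2, has more chances of a match. Shares by gene over all genes were not computed, so the counts by gene have no background. The interferon-type element was present in 9 of 46 windows (19.6%, beside 3.57% of all windows), in 1 of 9 members that rose, 2 of 9 that fell (TRIM14 and TRIM44) and 6 of 13 not called. A match describes the letters only. The windows of TRIM21 (chr11:4393653-4393952, minus strand) and TRIM26 (chr6:30213357-30213656, minus strand), both not called, each hold a run in which 2 such matches overlap, and they are shown for that reason.
TRIM21: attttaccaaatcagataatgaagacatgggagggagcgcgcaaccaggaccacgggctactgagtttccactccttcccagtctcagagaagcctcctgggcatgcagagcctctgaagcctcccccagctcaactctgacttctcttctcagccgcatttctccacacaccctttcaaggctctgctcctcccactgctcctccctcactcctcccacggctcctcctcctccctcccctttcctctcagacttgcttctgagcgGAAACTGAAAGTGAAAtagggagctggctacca
TRIM26: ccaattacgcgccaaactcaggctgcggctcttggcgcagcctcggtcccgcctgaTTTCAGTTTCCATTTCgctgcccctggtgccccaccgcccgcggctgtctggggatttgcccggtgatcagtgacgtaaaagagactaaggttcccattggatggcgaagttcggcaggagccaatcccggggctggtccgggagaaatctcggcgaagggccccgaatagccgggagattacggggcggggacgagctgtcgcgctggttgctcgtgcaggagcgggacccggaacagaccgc

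Among the chromatin co-regulators with a PHD finger and a bromodomain, 1 of 4 tested members fell and 1 rose, where 35.3% and 25.5% of all genes did. TRIM28, the corepressor that KRAB zinc finger proteins bring to DNA, had the highest level of the family both in CPM and per kilobase of exon. Its values were 464, 449 and 408 CPM in GFP and 279, 286 and 309 CPM in TEADi. All TEADi libraries were lower, by 1.51-fold in the mean (-0.59 ± 0.07, SE; adjusted p = 1.9e-06). TRIM66, of the same family of transcriptional intermediary factors, rose from 7.80, 11.1 and 11.3 CPM to 13.9, 17.3 and 14.9 CPM (adjusted p = 0.00137). GFP library A was the lowest for TRIM66, and the groups did not overlap. TRIM24, a nuclear receptor co-regulator and ligase of p53, had 31.8 ± 1.84 CPM in GFP and 28.5 ± 1.29 CPM in TEADi and was not called. TRIM33, a ligase acting on SMAD4, stood at 50.2 ± 0.942 and 51.0 ± 0.689 CPM, with a log2 fold change of 0.02 ± 0.07 (SE).

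The list of 13 tested TRIM28 corepressor partners, that is heterochromatin proteins, SETDB1, NuRD subunits and HUSH genes, had 6 members lower and 2 higher (median log2 fold change -0.14). Of all genes tested 35.3% were lower and 25.5% higher. Of those with a mean of at least 100 CPM, as CBX1, CBX3, HDAC2 and CHD3 have, 52.2% were lower and 23.8% higher. Below that level, where other partners such as SETDB1 and MORC2 lie, 32.4% were lower and 25.8% higher. The share of partners called lower lay between those of the 2 levels. CBX1 went from 234 ± 25.9 to 131 ± 2.20 CPM, HDAC2 from 209 ± 9.83 to 138 ± 5.92 and CBX3 from 336 ± 29.5 to 240.1 ± 3.69. These are heterochromatin proteins and a histone deacetylase, and all 3 fell. CHD3, a chromatin remodeller, rose from 192 ± 15.1 to 239 ± 14.7 CPM. The count called lower was 3 with equal totals, median-ratio factors or quantile normalization and also without TEADi library A, and it was 4 when GFP library C, TEADi library B or TEADi library C was left out, with the library letter as a replicate block, and without the variance trend. CBX3 overlaps the more strongly expressed HNRNPA2B1, and CHD3 overlaps LSMD1.

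All 3 tested members with NHL repeats, a propeller that binds RNA or protein, rose, where 25.5% of all genes did. Where leaving out 1 library took the call from TRIM2, 2 of 3 rose. Without a filter on low values TRIM2 also lost its call, and 2 of 4 rose. TRIM3, a partner of myosin V, went from 25.7, 22.5 and 27.9 CPM to 34.5, 38.0 and 41.2 CPM (1.49-fold; adjusted p = 6.75e-05). TRIM32, which lies inside ASTN2 on the other strand and whose mutations cause a limb-girdle muscular dystrophy, went from 19.6, 18.6 and 16.1 CPM to 26.3, 25.2 and 25.3 CPM (1.42-fold; adjusted p = 0.000291). Neither gene overlapped between groups in any pair of libraries. TRIM2, a ligase for a neurofilament protein, went from 12.1, 8.49 and 11.7 CPM to 12.4, 15.3 and 14.5 CPM, and its TEADi library A lay just above the highest GFP library. TRIM2 had adjusted p = 0.0205, which was 0.137 when GFP library B was left out, 0.0829 for TEADi library B and 0.0719 for TEADi library C, within 0.00491 to 0.17 over the alternatives. TRIM71, the developmental member of this class, stayed at or below 0.216 CPM in all libraries and was not tested.

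Of the members with a COS box, a microtubule-binding stretch, 2 of 3 tested rose, where 25.5% of all genes did. TRIM36 stood at 8.04, 6.37 and 7.72 CPM in GFP and 11.3, 11.3 and 10.5 CPM in TEADi (1.495-fold; adjusted p = 0.00103). TRIM46, which bundles microtubules at the start of axons, was low in all libraries, at 1.19, 1.14 and 1.38 CPM in GFP and 2.07, 1.65 and 2.05 CPM in TEADi. Its groups did not overlap, but its call (adjusted p = 0.0418) was lost without GFP library A, GFP library B, TEADi library A or TEADi library C, at 0.0848, 0.104, 0.106 and 0.112, within 0.00607 to 0.31 over the alternatives. TRIM46 also shares 79 bases with KRTCAP2, a far more strongly expressed gene on the other strand. TRIM9, a neuronal ligase, had 5.72 ± 0.929 CPM in GFP and 6.11 ± 0.873 CPM in TEADi and was not called.

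The class of members listed without a RING domain held 5 tested genes, of which 1 rose and 3 fell, where 25.5% and 35.3% of all genes did. Each member was placed in 1 class only, so this class need not hold every member without a RING. TRIM29, on chromosome 11 (hg19, 119981983 to 120056237, minus strand), rose from 2.50, 2.81 and 2.34 CPM to 10.6, 6.90 and 9.17 CPM. Every TEADi library exceeded every GFP library by more than 2-fold, although the TEADi libraries varied more among themselves than the GFP libraries did (1.46 ± 0.15, SE; adjusted p = 3.14e-07). TRIM29 was near equal in the 3 GFP libraries, unlike the basal keratins. TRIM16, a protein of the autophagic response to damaged membranes, stood at 194, 163 and 167 CPM in GFP and 152, 149.5 and 163 CPM in TEADi, and was just short of a call (adjusted p = 0.0508). Its adjusted p was below the threshold without GFP library B (0.0311), without GFP library C (0.0381), with a pseudocount of 5 and with a filter of 5 CPM, within 0.0311 to 0.441 over the alternatives. TRIM16L, a near copy of TRIM16, fell from 138, 124 and 111 CPM to 77.0, 73.8 and 76.3 CPM (adjusted p = 5.72e-07), and reads of these paralogs may be split between them, so that both levels are uncertain.

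TRIM14, a mitochondrial adaptor in RNA sensing, fell from 34.2, 33.4 and 32.1 CPM to 21.7, 22.01 and 20.3 CPM (adjusted p = 6.27e-06). The groups were well separated, but TRIM14 overlaps NANS, a gene of similar level on the other strand. TRIM44, which carries a zinc finger of the kind found in deubiquitinases, went from 223, 219.5 and 228 CPM to 164, 172 and 169 CPM (adjusted p = 2.37e-05). TRIM44 had the second highest level of the family in CPM and, with its long exons, the 5th highest per kilobase in GFP.

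**Figure D2:**
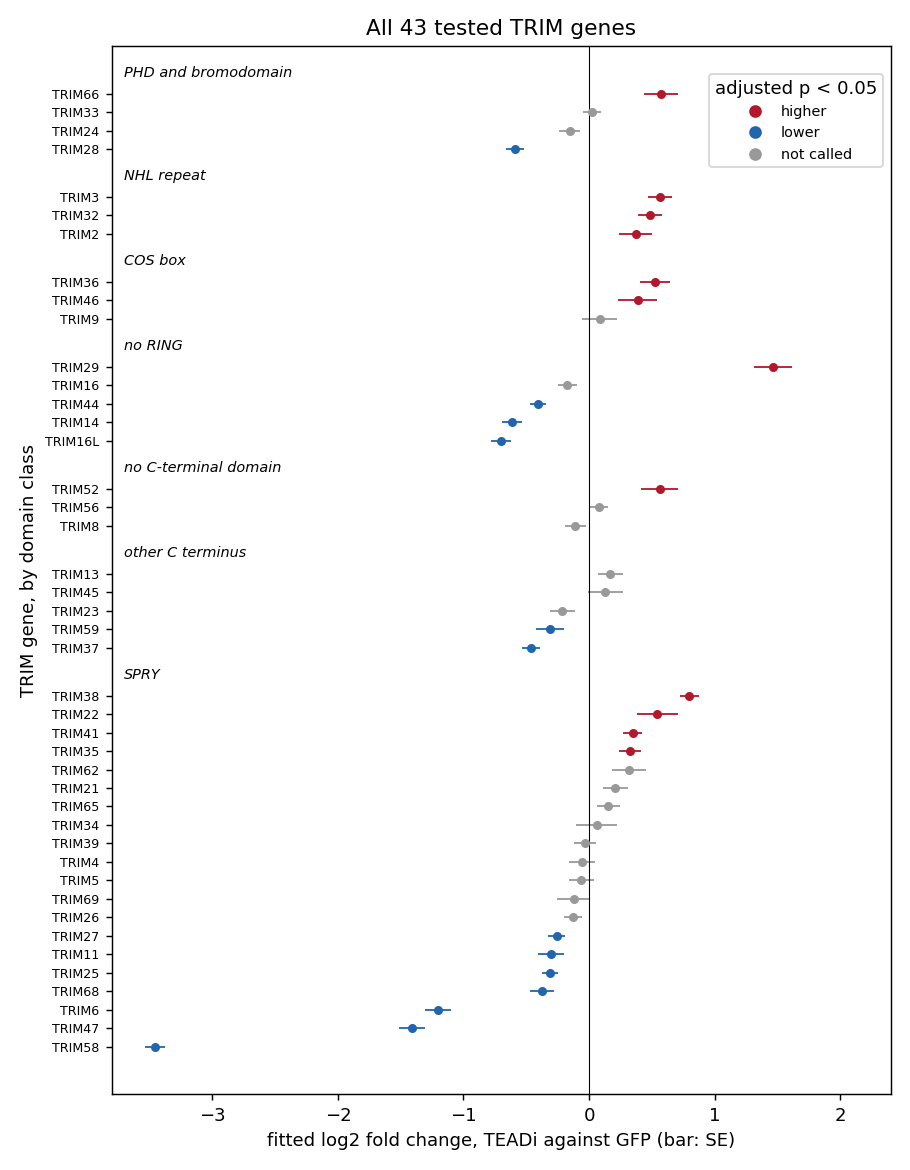
Fitted log2 fold change of TEADi against GFP with its SE for all tested TRIM genes, grouped by class and coloured by call. Classes follow the domain behind the coiled coil, except that members listed without a RING form a class of their own. The 3 NHL repeat genes all lie to the right of 0, and the SPRY class runs from -3.46 (TRIM58) to 0.80 (TRIM38).

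The members with other C termini had 2 of 5 tested genes lower and none higher at the threshold (with equal totals and with median-ratio factors 1 gene, TRIM13, was called higher). Of all genes 35.3% were lower and 25.5% higher. TRIM37, a ligase with a MATH domain that limits the assembly of centrosomes, fell from 84.0, 76.4 and 81.2 CPM to 58.3, 56.7 and 59.3 CPM (adjusted p = 1.74e-05), with no overlap. TRIM59, a membrane protein, went from 10.6 ± 0.294 to 8.33 ± 0.325 CPM (adjusted p = 0.0208). The call of TRIM59 was lost with equal totals and with median-ratio factors, and also without TEADi library A or C, within 0.00636 to 0.115 over the alternatives. TRIM59 overlaps SMC4, a strongly expressed condensin gene on the other strand. TRIM13, an endoplasmic reticulum ligase (13.4 ± 0.518 and 15.2 ± 0.861 CPM), TRIM23, which carries an ARF domain and overlaps TRAPPC13 (17.8 ± 0.853 and 15.3 ± 1.47 CPM), and TRIM45, with a filamin domain (3.85 ± 0.428 and 4.31 ± 0.532 CPM), were not called. TRIM23 was called lower without TEADi library C (adjusted p = 0.0385, within 0.0385 to 0.224 over the alternatives).

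Of the RING proteins without a recognised C-terminal domain, 1 of 3 tested rose, where 25.5% of all genes did. TRIM52 went from 6.13, 10.8 and 9.17 CPM in GFP, where library A was the lowest, to 13.0, 13.4 and 12.7 CPM in TEADi (adjusted p = 0.00361). TRIM41, a SPRY member whose gene lies 18607 bases from TRIM52 on the other strand, rose as well, from 51.9, 60.0 and 62.8 CPM to 73.7, 74.2 and 74.4 CPM (adjusted p = 0.000829). Both genes were nearly equal among the 3 TEADi libraries, and TRIM52 overlaps the less expressed AC008443.1 and CTC-338M12.4 on the other strand. TRIM7, the third gene of this neighbourhood, stood between 0.536 and 1.22 CPM and was not tested. TRIM8, a regulator of cytokine signalling, had 56.7 ± 2.05 and 52.7 ± 6.03 CPM, and TRIM56, which acts in DNA sensing, at 51.8 ± 1.97 and 54.7 ± 2.18 CPM. Neither was called, and TRIM56 was called higher with equal totals, median-ratio factors and quantile normalization.

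The SPRY class, which leaves out members listed without a RING, was the largest, with 20 of 43 tested members. Of these 4 rose and 7 fell, where 25.5% and 35.3% of all genes did. With equal totals and with median-ratio factors 7 rose and 6 fell, and calls over all genes also shifted towards rises there. Rises were 50.3% and 50.5% of all calls in these settings, beside 42.0% in the main fit. TRIM38, an interferon-inducible ligase that restrains inflammatory signalling, had the largest fitted rise of the class, from 28.8, 26.4 and 25.6 CPM to 46.8, 48.2 and 47.6 CPM. Libraries within each group were nearly equal (0.80 ± 0.08, SE; adjusted p = 1.56e-07). Beside TRIM22, TRIM38 and TRIM41, TRIM35 rose, from 24.0 ± 2.12 to 30.3 ± 0.914 CPM (adjusted p = 0.00364).

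TRIM25, the ligase of the RNA sensor RIG-I, fell from 152, 146 and 153 CPM to 116, 118 and 129 CPM (adjusted p = 0.000567). The fall was 1.24-fold, and no TEADi value reached the GFP range. TRIM27, also known as RET finger protein, went from 118, 115 and 104 CPM to 94.1, 94.9 and 91.7 CPM (adjusted p = 0.00315), and its only entry lies on an alternative haplotype of the major histocompatibility region. TRIM68, a ligase that interacts with the androgen receptor, went from 26.3, 25.2 and 27.7 CPM to 18.2, 22.7 and 19.7 CPM (adjusted p = 0.00279). TRIM11, a RING ligase, was the only called member whose groups overlapped, with 30.6, 28.4 and 32.8 CPM in GFP and 21.6, 23.9 and 28.9 CPM in TEADi. Its adjusted p of 0.0169 rose above 0.05 with equal totals and median-ratio factors, and also without GFP library C, TEADi library A or TEADi library B, within 0.00355 to 0.106 over the alternatives.

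The 9 members of the SPRY class that were not called were TRIM65, TRIM34 and TRIM5, given above, and TRIM4, TRIM21, TRIM26, TRIM39, TRIM62 and TRIM69. TRIM21, the cytosolic antibody receptor, stood at 13.5 ± 0.667 CPM in GFP and 15.8 ± 1.28 CPM in TEADi, and was called higher with equal totals and median-ratio factors. TRIM62, a ligase of the adaptor CARD9, had 3.92 ± 0.483 and 5.13 ± 0.427 CPM with adjusted p = 0.0522, and was the only tested member with 1 entry whose call differed from the authors' deposited table, where its adjusted p is 0.0208. TRIM62 was called higher without GFP library B, with equal totals, with median-ratio factors, with a pseudocount of 5 and without the variance trend, within 0.0211 to 0.193 over the alternatives. TRIM4, a further RIG-I ligase, had 17.5 ± 1.17 and 16.9 ± 1.93 CPM. TRIM39, known as an inhibitor of the anaphase-promoting complex, had 32.8 ± 3.02 and 32.0 ± 1.47 CPM and overlaps RPP21, and TRIM69, an interferon-induced microtubule binder, had 8.62 ± 1.47 and 7.78 ± 0.707 CPM. The signs of TRIM4, TRIM5 and TRIM39 turned with equal totals and median-ratio factors.

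**Figure D3:**
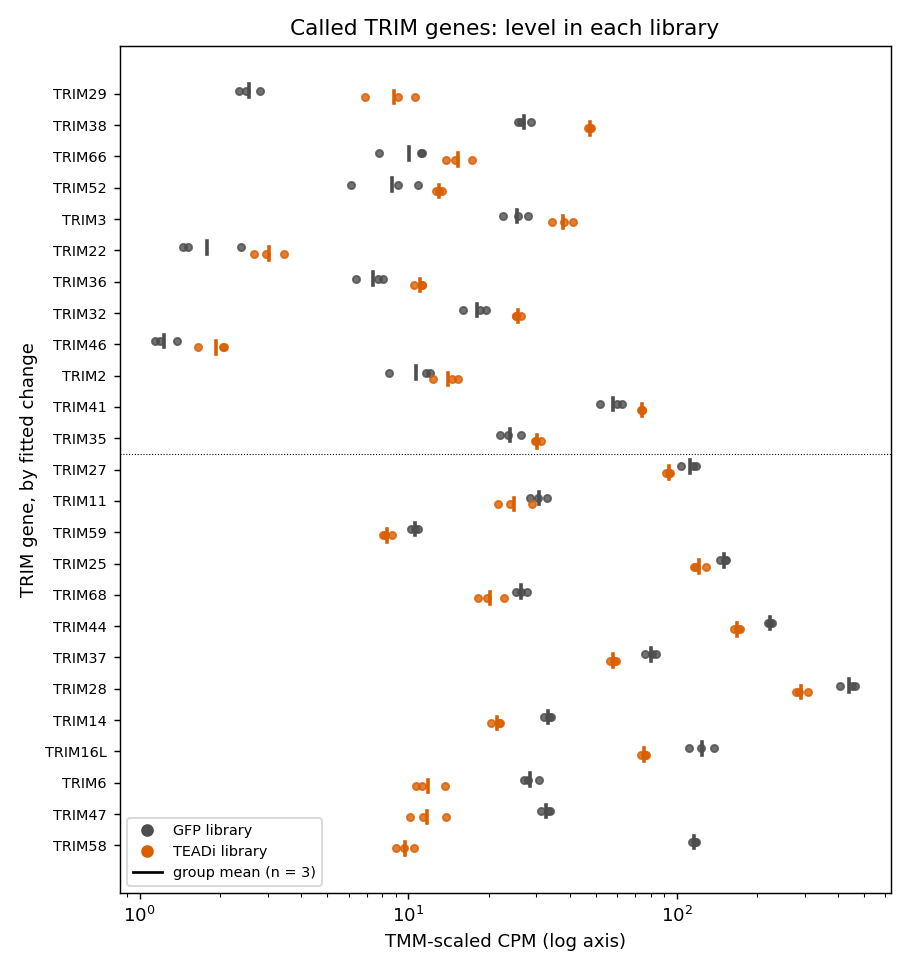
Level of each called TRIM gene in each library (CPM, log axis), with GFP libraries in grey, TEADi libraries in orange and short vertical lines at the group means. Below the dotted line are the 13 genes that fell and above it the 12 that rose, and TRIM11 is the one gene whose groups overlap.

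TRIM26, a SPRY ligase of the major histocompatibility region, was split over entries. The table holds 3 entries for it, all on alternative haplotypes of chromosome 6, and in each library a single entry carried nearly all of the value. The MCF haplotype entry held 57.0 CPM in GFP library A and the smallest value in the other 5 libraries. The MANN entry held 53.2 CPM in GFP library B and 47.9 CPM in TEADi library A, and the APD entry held the value in the other 3 libraries, at 52.7, 49.4 and 51.4 CPM. In the authors' deposited table these entries have ratios of TEADi to GFP of 0.00383, 0.900 and 1.91, with adjusted p-values of 0.325, 0.997 and 0.413. Summed over entries, TRIM26 came to 57.0, 53.3 and 52.8 CPM in GFP and 48.0, 49.5 and 51.5 CPM in TEADi. The summed values differed little, with a log2 fold change of -0.13 ± 0.07 (SE; adjusted p = 0.13).

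**Figure D4:**
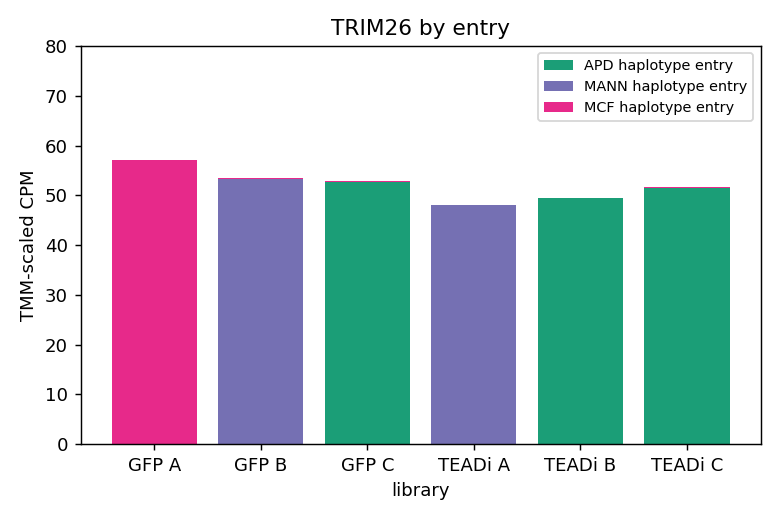
Level of TRIM26 in each library (CPM), stacked by the entry of the table that holds it. In each library 1 of 3 haplotype entries carries nearly the whole bar, while the bar heights stay between 48.0 and 57.0 CPM.

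The 9 members that were not tested ranged from 0.0595 to 1.22 CPM. Beside TRIM7, TRIM61 was the only one above 0.3 CPM, at 0.734, 0.758 and 0.728 CPM in GFP and 0.358, 0.216 and 0.638 CPM in TEADi. TRIM17, TRIM31, TRIM55 and TRIM71 did not exceed 0.298 CPM in any library. TRIM10, TRIM15 and TRIM73 were listed at the smallest value, or its stand-in for summed entries, in all 6 libraries. Among the untested members are TRIM55, a muscle protein, and TRIM17, whose neighbour TRIM11, 1099 bases away, was clearly expressed.

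Of the 5 tested members with a mean of at least 100 CPM (TRIM16, TRIM25, TRIM27, TRIM28 and TRIM44), 4 fell and none rose, whereas 52.2% of all genes at that level fell and 23.8% rose. Among the 38 members below that level, 12 rose and 9 fell, beside 25.8% and 32.4% of all genes there. The highest mean of a member that rose was 66.1 CPM (TRIM41). The summed CPM of all 52 members was 2274, 2170.0 and 2139.5 in the GFP libraries and 1719, 1756 and 1817 in the TEADi libraries. The sum was thus lower in every TEADi library, with group means of 2195 ± 70.7 and 1764 ± 49.4 CPM, and without TRIM58 the means were 2078 ± 69.5 and 1755 ± 50.2 CPM. TRIM28 alone made up 19.1% to 20.7% of the sum in GFP libraries and 16.2% to 17.0% in TEADi libraries. Totals over all genes were also lower in TEADi, at 827118 to 873461 CPM, than in GFP, at 887390 to 915554 CPM.

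Further proteins of the family carry other names and were therefore not members, and 4 were tested. MID1, which is TRIM18 and binds microtubules, fell from 73.3 ± 2.06 to 32.5 ± 0.653 CPM (2.26-fold; adjusted p = 4.13e-10). MEFV, which is TRIM20 or pyrin, an inflammasome sensor, rose from 0.952, 0.758 and 1.59 CPM to 8.80, 10.5 and 8.56 CPM (8.45-fold; adjusted p = 2.62e-09). Both changes were larger than those of most members. MID2, a close relative of MID1, stood at 10.8 ± 0.380 and 10.9 ± 1.03 CPM, and PML, which is TRIM19 and builds nuclear bodies, at 54.7 ± 4.15 and 58.1 ± 4.16 CPM, and neither was called. With median-ratio factors or quantile normalization PML was called higher.

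Of 8 tested TRIM genes known to be induced by interferon, TRIM22 and TRIM38 rose, TRIM14 and TRIM25 fell, and TRIM5, TRIM21, TRIM34 and TRIM69 were not called, shares near those of all genes (25.5% higher, 35.3% lower). Their median log2 fold change lay next to 0. Of 16 tested interferon response genes outside the family, 10 rose and 1 fell, with a median of 0.39, and without GFP library C 8 rose and 3 fell. IRF9, a subunit of the interferon-activated transcription complex, rose from 8.33 ± 1.32 to 19.5 ± 1.34 CPM, and the ubiquitin-like modifier ISG15 from 12.4 ± 1.67 to 20.3 ± 0.615. Sensors, adaptors and kinases of the antiviral response, with which TRIM25, TRIM14, TRIM6 and TRIM38 work, had 7 of 17 members higher and 2 lower (median 0.22), and 10 higher with equal totals or median-ratio factors. Among them TMEM173, the adaptor STING, rose from 7.26 ± 0.242 to 15.4 ± 2.05 CPM, the kinase IKBKE from 23.4 ± 0.947 to 32.3 ± 1.79 and the transcription factor IRF3 from 40.0 ± 0.309 to 51.5 ± 3.38. The DNA sensor MB21D1, also called cGAS, fell from 22.7 ± 2.05 to 15.5 ± 2.18 CPM. IRF3 overlaps BCL2L12 on the other strand.

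Of 16 tested E1 and E2 enzymes, which supply ubiquitin to RING ligases, 11 fell and 3 rose (median log2 fold change -0.30, beside -0.07 for all genes tested). Of all genes tested 35.3% fell and 25.5% rose, and of those with a mean of at least 100 CPM, as several of these enzymes have, 52.2% fell. The count of enzymes called lower was 9 with equal totals, median-ratio factors or quantile normalization. It was also 9 without the variance trend and without TEADi library A or B, and 10 with the replicate block, without a filter on low values and without GFP library A. UBE2N, which builds the lysine-linked signalling chains used by several TRIM proteins, fell from 137 ± 13.1 to 89.0 ± 2.51 CPM, and UBE2D2, a general partner of RING ligases, from 108 ± 12.3 to 79.7 ± 1.64. UBA1, the main activating enzyme, rose from 439 ± 10.6 to 659 ± 29.6 CPM, and UBE2L6, an enzyme of the interferon-induced modifier ISG15, from 15.7 ± 1.89 to 27.1 ± 2.69. UBA7, the activating enzyme for ISG15, was the third member that rose, named after its values were seen (1.12 ± 0.312 to 2.88 ± 0.0490 CPM). Of 11 tested genes of PML bodies and the SUMO pathway, 7 fell and 2 rose (median -0.26), and 1 rose without GFP library B or without TEADi library B. With equal totals, median-ratio factors or quantile normalization 6 fell, and without the variance trend 6 fell and 1 rose. Among those that fell were SUMO3 (168 ± 16.6 to 125 ± 2.31 CPM), SUMO2 (329 ± 27.1 to 253 ± 1.18) and the kinase HIPK2 (439.6 ± 38.0 to 342 ± 36.7). SUMO2 overlaps HN1, and genes such as SUMO2, CBX3 and UBE2D2 have near-identical copies elsewhere in the genome that may share reads.

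**Figure D5:**
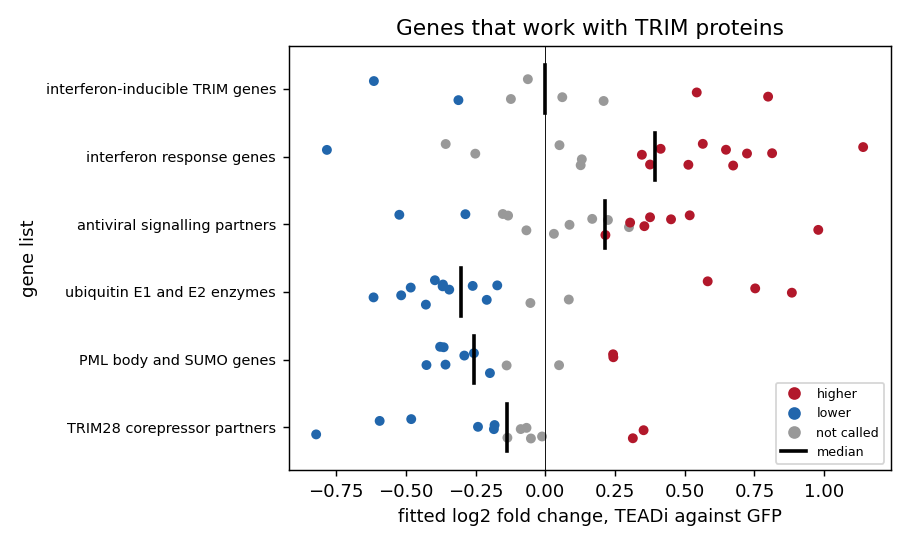
Fitted log2 fold change of each tested gene in 6 gene lists, coloured by call, with the median of each list as a black line. The lists hold interferon-inducible TRIM genes, interferon response genes and genes that work with TRIM proteins. The ubiquitin E1 and E2 enzymes lie mostly to the left of 0 (median -0.30) and the interferon response genes mostly to the right (median 0.39), while the interferon-inducible TRIM genes spread over both sides.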

How the data were processed

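The submitters' processing notes list STAR 2.5.1, Trimmomatic 0.36, Partek 8.0.19.0819 and the build hg19, with no role or order, and the quantifier, annotation and use of strand are not given in the sources used here. The deposited values are CPM that the authors scaled with TMM factors, per the name of their table, and the unit was read from the values. The authors' deposited comparison table gives per entry a signal (the group mean), the ratio of TEADi to GFP, a signed fold score, and a p-value with adjusted forms. Its test is named only by the letters GSA in the name of the table.

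The 6 columns were matched to the labels by name. The 19921 entries were merged by symbol (19437 genes) by summing values above a library's smallest value, which stands for 0, and adding that value once. Members were merged from 60 entries, and 4 had several. Genes that reached 1 CPM in 3 or more libraries were fitted as log2(CPM + 1) with limma 3.58.1 in R 4.3.3 (lmFit, eBayes with trend, no covariates), two-sided, with Benjamini-Hochberg adjustment over 13648 genes, and called at 0.05. Printed folds are ratios of mean CPM, and log2 fold changes are fitted. The code was tested on simulated data. Library letters recur in both groups and were not used as pairs.

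Library values are given for the 10 largest fitted rises and falls among called members and the 5 members of highest mean CPM, and of other lists up to 4 called genes with the smallest p are named, except for some that are not reported here. Values per library of other members, and UBA7, were added after they were seen. Members and lists were chosen with earlier results of these data known. Of 43 tested members, 10 share bases with a gene whose level is 10% of theirs or more. Exon lengths are merged exons of GENCODE 29 (GRCh38), used as lengths only, and promoters come from RefSeq. Python 3.11.15, pandas 2.3.3, numpy 2.4.6 and matplotlib 3.10.9 were used.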

Additional observations from a re-analysis of the deposited data

How the results depend on the processing

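Of 25 called members, 19 kept their call in every one of the 17 alternatives in which they were tested, 9 higher and 10 lower, and none of the 25 changed sign there. A filter of 5 CPM left TRIM22 and TRIM46 untested, so that 16 alternatives cover them. The number of called members ranged from 20 to 28, with 9 to 17 higher and 11 to 14 lower. The 6 calls lost in at least 1 alternative were those of TRIM2, TRIM11, TRIM27, TRIM35, TRIM46 and TRIM59. Of 18 tested members without a call, 7 were called in at least 1 alternative and 7 changed sign in at least 1. With libraries set to equal totals the fitted median of all genes moved by 0.07 and with median-ratio factors by 0.07 on the log2 scale, and 28 members were called in each. Deviations from the group means correlated at 0.08, -0.06 and -0.02 between same-letter libraries A, B and C, and 2 of 6 libraries correlated best with their own letter. These values gave no sign of pairing by letter, but with 3 libraries per group they cannot show whether a letter marks a shared culture or day. With the library letter as a replicate block 24 members were called, 11 higher and 13 lower, and TRIM46 lost its call (adjusted p = 0.0517, limma, Benjamini-Hochberg). Leaving out 1 library gave 22 to 25 called members. Without GFP libraries A and B, in which basal keratins stood high, 20 members were called, 9 higher and 11 lower. This alternative was chosen after seeing the data, and its lone GFP library is assumed to vary like the TEADi libraries. TRIM27 (adjusted p = 0.129) and TRIM35 (adjusted p = 0.148, limma, Benjamini-Hochberg) lost their calls there only. The 9 members below the filter were fitted only in the alternative without a filter on low values. Except in TRIM7 and TRIM61, their values are at or within a few multiples of the smallest value. In the authors' deposited table TRIM61, TRIM7 and TRIM17 have adjusted p-values of 0.0299, 0.0335 and 0.0430, with ratios of TEADi to GFP of 0.546, 1.41 and 0.368. All others of the 9 lie above 0.05 there.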

Other observations

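Entries next to the members were outside the rule. The read-through TRIM6-TRIM34 measured 1.15, 0.156 and 2.91 CPM in the GFP libraries (in the order A, B, C) against 0.843, 0.613 and 0.829 CPM in TEADi, so that the 3 GFP libraries differed more among themselves than from TEADi. The read-through TRIM39-RPP21 reached 1.65 CPM in TEADi library A and 0.760 CPM in GFP library B and at most 0.132 CPM in the other 4 libraries. These are the 2 libraries in which TRIM26 was held by the MANN haplotype entry. The antisense transcript TRIM52-AS1 measured 4.64, 3.56 and 2.96 CPM in GFP and 2.33, 3.02 and 3.08 CPM in TEADi, while TRIM52 was higher in every TEADi library. TRIML2, a TRIM-like gene, measured 7.62, 6.14 and 6.90 CPM in GFP and 5.00, 6.11 and 5.73 CPM in TEADi.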
